A study of Bos taurus with 8 samples.

Results

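The genes described here are 7 that carry the response of a cell to unfolded protein and to other stresses that slow translation: ATF4, DDIT3, DDIT4, XBP1, HSPA5, HSP90B1 and DNAJB9. They were chosen by name, with earlier results of these data known. Every array probe whose gene symbol in the platform annotation was among them was taken. The array held 9 such probes among 43794, for 6 of the 7 genes, against 15229 genes named in all. DDIT3 had 3 probes, HSP90B1 had 2, and ATF4, DDIT4, HSPA5 and DNAJB9 had 1 each. No probe carried the symbol XBP1, so its level is not analysed here.

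When protein folding in the endoplasmic reticulum (ER) falls behind, the sensor kinase PERK phosphorylates the initiation factor eIF2, which slows translation in general and favours translation of the ATF4 message. Kinases that sense amino acid shortage, viral RNA and haem shortage act on the same factor, so ATF4, a bZIP transcription factor, collects several kinds of stress. ATF4 activates genes of amino acid uptake and synthesis, DDIT3 and DDIT4, while the ER sensors IRE1 and ATF6 act through XBP1 and through cleaved ATF6 to raise chaperones such as HSPA5. Because ATF4 is controlled largely in translation, its transcript and its protein need not move together, and the arrays measured transcripts only. Granulosa cells, the somatic cells that surround the oocyte and secrete oestradiol, inhibin and follicular fluid proteins, are secretory cells with a well developed ER.

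The samples came from 4 Holstein heifers around puberty, and each heifer gave samples at the ages of 8, 11 and 14 months. Every heifer at every age had received progesterone from a vaginal device, aspiration of the dominant follicle and a course of FSH injections before the follicles were punctured through the vagina with a needle, per the labels' protocols. Of the 8 dual-colour arrays, 4 paired 8-month with 14-month RNA of a heifer and 4 paired 11-month with 14-month RNA. In heifers 1 and 2 the younger sample was labelled with Cy5, and in heifers 3 and 4 with Cy3. The labels call every sample granulosa cells with the sample type in_vitro, and say that RNA was extracted from pools and amplified in successive rounds. The design text, in contrast, describes blastocysts, and this conflict was not settled. A group is thus a set of stimulated follicles of the same 4 animals, with no unstimulated samples and no samples at other stages of the cycle.

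The labelled cell type was checked against 15 granulosa genes. All 15 were kept for testing, and FSHR, the FSH receptor, and CYP19A1, the aromatase that makes oestradiol, were above background in all 16 channels. FOXL2, a transcription factor of granulosa identity, was above background in 7 of the 16. Markers of other cells differed as well. On the arrays of 8 against 14 months the median log2 ratio of 13 measured motile cilia genes was 2.9, 4.05, -0.0239 and 0.0182 in heifers 1 to 4. On the arrays of 11 against 14 months it was 1.63, 0.186, 0.0439 and 3.49, and limma called 0 of the 13 in either comparison, with 6 at an unadjusted p under 0.05 at 8 months and 0 at 11 months. The median of 16 measured genes of stratified squamous epithelium was 3.06, 0.9, 1.44 and 2.8 at 8 months, and 9 of the 16 rose, while at 11 months it lay between 0.0484 and 0.629. Of 10 measured genes of simple epithelium 3 rose and 0 fell at 8 months, and their median was 3.19, 1.97, 1.5 and 0.727 in heifers 1 to 4. At 11 months it was between -0.266 and 0.293 in heifers 1 to 3 and 2.33 in heifer 4. The median of 17 measured leukocyte genes was -1.94 and -1.47 on the arrays of heifer 2, at 8 and 11 months, and between -0.502 and 0.142 on the others. The fitted change over all heifers was below 0 for 15 of the 17 at 8 months and for 16 at 11 months. Limma called 0 of them in either comparison, with 5 at an unadjusted p under 0.05 at 8 months and 2 at 11 months. Squamous and simple epithelium medians were above 0 in all heifers at 8 months, and cilia medians clearly so in heifers 1 and 2. The part of these cells in the results below was not tested. Fewer cells of a type and less RNA per cell cannot be told apart in such samples. The median spot intensity of a channel ranged from 220 to 329 and that of the negative controls from 162.8 to 297, and 43.3% to 57.3% of probes were above background.

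All values below are on the log2 scale and signed as the younger age minus 14 months, so that a negative value is a lower transcript level in the younger ovary. A change is the estimate of a limma model over all 8 arrays with a dye term and the heifer as a random block. Its ± is the SD over the 4 heifers, and its p is adjusted by Benjamini-Hochberg over 22692 kept probes, with 0.05 as the threshold. Between 8 and 14 months 871 of the 22692 probes passed, which is 3.84%, with 3.24% higher and 0.599% lower at 8 months. Of the 9 member probes 1 fell, 0 rose and 8 did not pass. At an unadjusted p under 0.05 stood 4 of the 9, against 24.8% of all kept probes. The median change of the 9 probes was -0.09, and that of all kept probes was 0.0043. Between 11 and 14 months limma called 0% of all probes and none of the 9 member probes. At an unadjusted p under 0.05 stood 7.5% of all probes there and 0 of the 9.

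**Figure D1:**
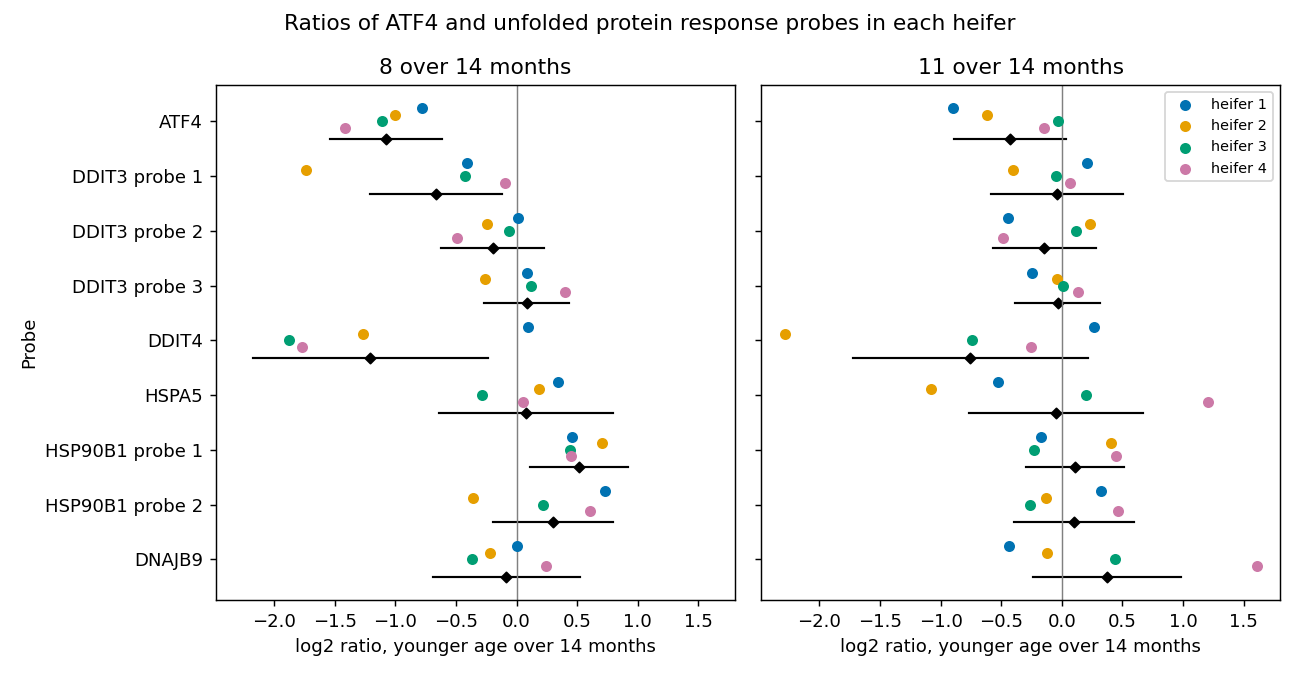
Log2 ratio of the younger age over 14 months for each of the 9 member probes (rows), at 8 months on the left and at 11 months on the right. Coloured points are the 4 heifers, and black diamonds with lines are the fitted change with its 95% confidence interval. The ATF4 points at 8 months lie between -1.414 and -0.782, all below 0, and those of HSPA5 lie on both sides of 0.

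ATF4 was the member that fell. Its log2 ratio of 8 over 14 months was -0.782 in heifer 1, -1.005 in heifer 2, -1.11 in heifer 3 and -1.414 in heifer 4. All 4 heifers were lower at 8 months, and the arrays of both dye orientations agree in sign. Ratios below 0 in all 4 heifers were found for 15.9% of all kept probes. The fitted change was -1.08 ± 0.26 (SD, n = 4), with a standard error of 0.20 and a 95% confidence interval from -1.54 to -0.62. This is a level 2.11-fold lower at 8 months, with an interval from 1.53 to 2.91, at an adjusted p of 0.0304 from limma. By p, the probe ranked 410 among the 22692, and 4.25% of the kept probes had a lower change. The estimated dye effect of the probe was -0.07 (unadjusted p = 0.641 from limma).

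At 11 months the ratios of ATF4 were -0.897, -0.62, -0.035 and -0.146 in heifers 1 to 4. All 4 were again below 0, which held for 6.67% of all kept probes, but those of heifers 3 and 4 were close to 0. The change was -0.42 ± 0.40 (SD, n = 4), the interval reached from -0.89 to 0.04, and the adjusted p from limma was 0.662. Both comparisons use 14-month RNA of the same heifers, so their signs are not independent of each other. The difference between 8 and 11 months, taken through 14 months, was -0.65 with an interval from -1.25 to -0.05 and an adjusted p of 0.919 from limma. That value and a difference between the 2 sets of arrays cannot be told apart. At an unadjusted p under 0.05 between these ages stood 5.33% of all probes and, of the 9 members, ATF4 alone.

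As channel intensities, the level of ATF4 was 10.91 ± 0.40 at 8 months, 11.51 ± 0.29 at 11 months and 11.96 ± 0.26 at 14 months (log2, SD, n = 4 heifers). The 8-month levels of the 4 heifers were 11.27, 11.06, 10.97 and 10.33, and each heifer's mean of its 14-month channels lay between 11.59 and 12.18. The 14-month RNA was measured on both arrays of a heifer, and those repeats of ATF4 differed by 0.087 to 0.307, less than any of the 4 differences between 8 and 14 months. The mean levels stood in the order of age, but 11 months did not differ from either neighbour past the threshold. In heifer 1 the level was 11.27 at 8 months and 11.24 at 11 months. ATF4 was above background in all 16 channels and saturated in none.

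The call of ATF4 was lost without heifer 3 or 4. Without heifer 3 the change was -1.06 with an adjusted p of 0.226 from limma, and 0 of all probes passed. Without heifer 4 it was -0.92 with an adjusted p of 0.176, and 37 of all probes passed. The loss was thus not particular to ATF4. Fits without a heifer had 3 residual degrees of freedom, against 5 in the full fit. Without heifer 1 or 2 ATF4 kept its call (adjusted p = 0.0405 and 0.0363, limma). Over 18 settings and omissions the change stayed between -1.6 and -0.885 and its adjusted p from limma between 0.00902 and 0.228. The estimate of -1.6 came from a fit without the 8-month arrays of heifers 1 and 2. The 8-month arrays left in it share a dye orientation and its dye term rests on the 11-month arrays, so the estimate lies below both ratios left and gives no separate support. Markers of other cells stood beside these ratios. On the 8-month arrays of heifers 3 and 4, where ATF4 was at -1.11 and -1.414, the cilia medians were near 0, but the squamous medians were 1.44 and 2.8 and KRT4, a keratin of mucosal linings, was at 4.89 and 4.72. CYP19A1 was lower at 8 than at 14 months in all 4 heifers, at -0.892, -1.88, -0.437 and -0.771. FSHR was lower too, at -1.6, -1.24, -0.772 and -0.627. The granulosa list as a whole had medians of 0.022, -0.431, 0.045 and 0.133. Of its 15 genes 1 rose and 0 fell in limma at 8 months, so neither CYP19A1 nor FSHR passed. Estimates were above 0 for 6 of the 15 and below 0 for 9. The part of these cells in the lower ATF4 level was not tested. With the cilia and squamous medians of each array as covariates ATF4 stood at -1.42, with an adjusted p of 0.228 from limma, and under those covariates 0 of all probes passed. The squamous medians were 0.9 or more on every 8-month array and at most 0.629 at 11 months. With 3 residual degrees of freedom this fit cannot separate age from that covariate. Its values can lie outside the ratios of the heifers.

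**Figure D2:**
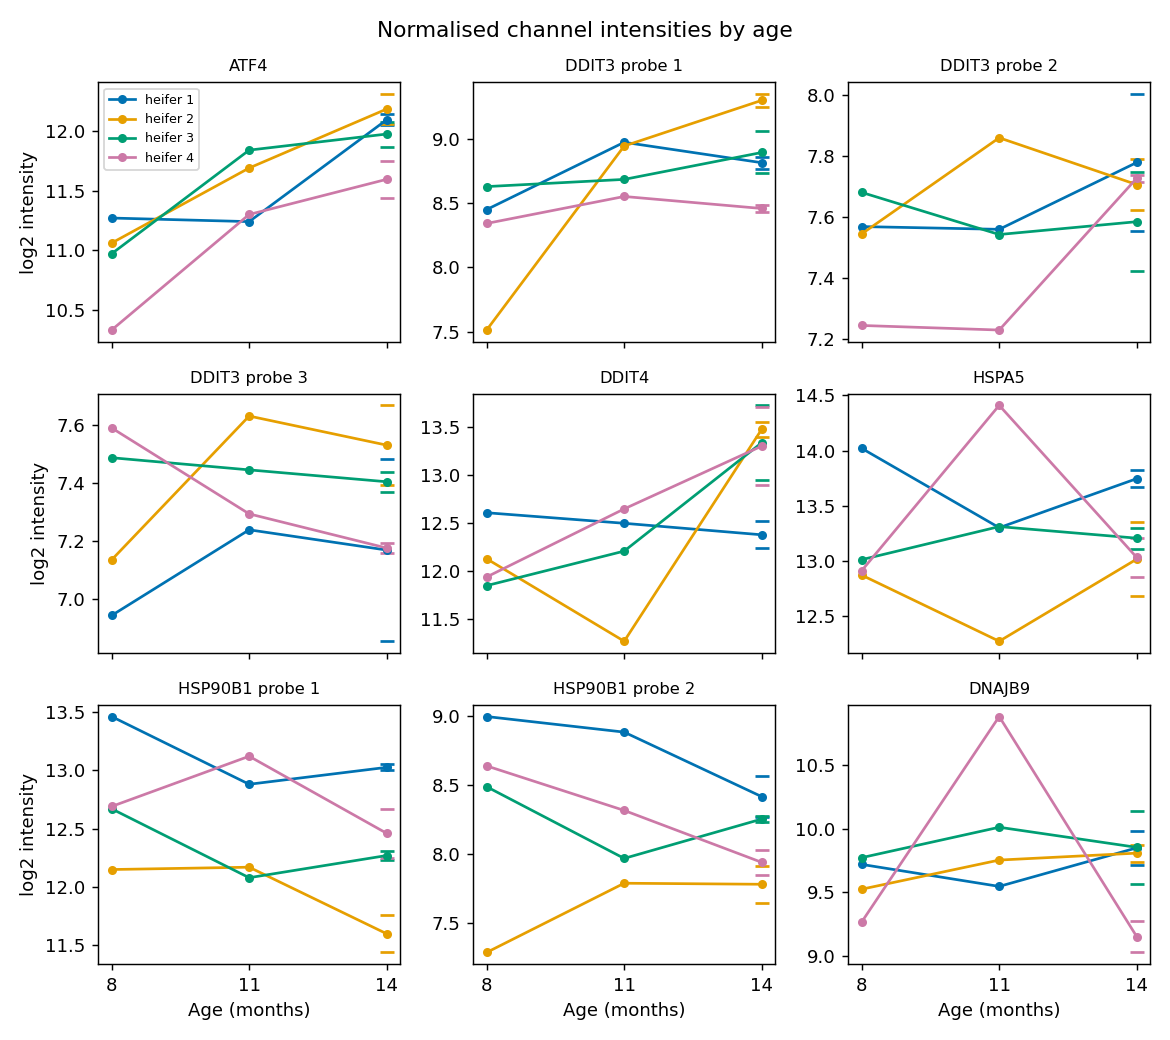
Normalised log2 channel intensity of each member probe (vertical axis, scaled for each probe) against age in months, with a coloured line for each heifer. The point at 14 months is the mean of a heifer's 2 channels at that age, and the short bars are those channels. ATF4 was lower at 8 than at 14 months in all 4 heifers, while the lines of HSPA5 and DNAJB9 run in different directions.

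Downstream of ATF4 in the stress response, DDIT4 (REDD1) restrains the growth kinase complex mTORC1, and DDIT3 (CHOP) is a bZIP partner that promotes cell death under lasting ER stress. The ratio of DDIT4 at 8 over 14 months was 0.091 in heifer 1, -1.264 in heifer 2, -1.881 in heifer 3 and -1.774 in heifer 4. Heifers 2 to 4 were thus clearly lower at 8 months, and heifer 1 was near 0. The change was -1.21 ± 0.91 (SD, n = 4), with an interval from -2.18 to -0.24 and an adjusted p of 0.131 from limma, so DDIT4 did not pass although its estimate was larger than that of ATF4.

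At 11 months DDIT4 had ratios of 0.268, -2.287, -0.744 and -0.258, again with heifer 1 above 0 and the others below. The change was -0.76 ± 1.10 (SD, n = 4; adjusted p = 0.664, limma). It changed with the heifers in the fit: without heifer 2 it was -0.02, and without heifer 1 it was -1.2, with neither passing (adjusted p = 0.981 and 0.276, limma). With a heifer left out the dye orientations are unequal, so the dye term also moves the estimates of such fits. Mean levels of DDIT4 were 12.13 ± 0.34 at 8 months, 12.16 ± 0.62 at 11 months and 13.13 ± 0.50 at 14 months. Repeats of the 14-month RNA differed by up to 0.805 for this probe, which is about as large as the 11-month change. Leaving out heifer 1 moved the 8-month change of DDIT4 to -1.74 with an adjusted p of 0.0457, and leaving out heifer 2 to -0.96 with an adjusted p of 0.0489. Over all 18 settings its adjusted p lay between 0.0233 and 0.462.

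The brightest DDIT3 probe had ratios of -0.413, -1.741, -0.428 and -0.092 at 8 over 14 months. All 4 were below 0, and heifer 2 was far lower than the others. The change was -0.67 ± 0.73 (SD, n = 4), with an interval from -1.21 to -0.12 and an adjusted p of 0.135 from limma. Without heifer 2 it was -0.31 (adjusted p = 0.324), and with the cilia and squamous medians as covariates -1.41 (adjusted p = 0.214). At 11 months the same probe stood at -0.04 ± 0.26 (adjusted p = 0.967), with 2 heifers on each side of 0. The mean level of this probe was 8.23 ± 0.50 at 8 months, 8.79 ± 0.20 at 11 months and 8.87 ± 0.35 at 14 months.

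The other DDIT3 probes were dim. At 8 months each was above background in 2 of 4 channels. The second probe stood at -0.20 ± 0.23 (adjusted p = 0.553) and the third at 0.09 ± 0.27 (adjusted p = 0.769). Their intervals, from -0.624 to 0.229 and from -0.265 to 0.437, both include 0. The sign of neither dim probe is thus settled. At 11 months they stood at -0.14 ± 0.37 and -0.03 ± 0.16, and neither passed in limma (adjusted p = 0.83 and 0.959).

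HSPA5 (BiP) is the main Hsp70 chaperone of the ER lumen, and its transcript is the classic readout of the unfolded protein response. Its ratio of 8 over 14 months was 0.346 in heifer 1, 0.188 in heifer 2, -0.282 in heifer 3 and 0.057 in heifer 4. The values lie on both sides of 0. The change was 0.08 ± 0.27 (SD, n = 4), with an interval from -0.64 to 0.79 and an adjusted p of 0.906 from limma. The interval leaves room for a change of up to 1.73-fold upwards or 1.56-fold downwards, so a moderate difference could have been missed. It rests on all 8 arrays, including the 11-month ratios of HSPA5, which spread more widely (SD 0.99). In a fit of the 8-month arrays alone the change was the same, with a standard error of 0.18 against 0.32.

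HSPA5 had a wider spread over heifers at 11 than at 8 months. Its ratios of 11 over 14 months were -0.525, -1.08, 0.203 and 1.205. Heifers 1 and 2 were lower and heifer 4 higher than at 14 months, and the change of -0.05 ± 0.99 (SD, n = 4; adjusted p = 0.973, limma) averages these. The 11-month level of heifer 4, 14.41, was the highest of all HSPA5 levels, and that of heifer 2, 12.27, the lowest. On the 11-month array of heifer 4 the cilia median was 3.49 and the granulosa median -1.09, with CYP19A1 at -3.13 and FSHR at -2.01. Whether these go with the high HSPA5 level was not tested. Mean levels were 13.20 ± 0.55 at 8 months, 13.32 ± 0.88 at 11 months and 13.25 ± 0.34 at 14 months, and no age differed from another beyond this spread.

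HSP90B1 (GRP94), the ER member of the Hsp90 family, was measured by a bright and a dim probe. The bright probe had ratios of 0.457, 0.702, 0.44 and 0.448 at 8 over 14 months. All 4 heifers were higher at 8 months, which held for 15.6% of all kept probes, and 3 of them were nearly equal. The change was 0.51 ± 0.13 (SD, n = 4), with an interval from 0.11 to 0.92, and it did not pass in limma (adjusted p = 0.127, unadjusted p = 0.0189). At 11 months its ratios were -0.175, 0.406, -0.228 and 0.446, with a change of 0.11 ± 0.36 (adjusted p = 0.864). Ratios above 0 in all 4 heifers, which no member probe had at 11 months, were found there for 6.33% of all probes.

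The dim probe of HSP90B1 had ratios of 0.728, -0.359, 0.217 and 0.608 at 8 over 14 months. Its change of 0.30 ± 0.49 (adjusted p = 0.431) had the same sign as that of the bright probe, but heifer 2, the highest on the bright probe, was the lowest here. Over the 8 arrays the log2 ratios of both probes had a Pearson correlation of 0.121, as a description of arrays that share heifers and 14-month RNA.

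DNAJB9 (ERdj4) is a J-domain cochaperone of HSPA5 and a target of XBP1. Its ratio of 8 over 14 months was 0.005, -0.217, -0.368 and 0.239, on both sides of 0, and the change was -0.09 ± 0.26 (SD, n = 4; adjusted p = 0.877, limma). With the cilia and squamous medians as covariates it was -1.24, below the ratios of all 4 heifers (unadjusted p = 0.0303, adjusted p = 0.247, limma). At 11 months the ratios were -0.437, -0.122, 0.443 and 1.61, and the change was 0.37 ± 0.90 (adjusted p = 0.696). Heifer 4 at 11 months was the highest, as for HSPA5, and heifers 1 and 2 were below 0 for both genes. Over the 8 arrays the ratios of HSPA5 and DNAJB9 correlated at 0.786, and those of ATF4 and DNAJB9 at 0.627. ATF4 correlated at 0.359 with DDIT4, at 0.297 with the brightest DDIT3 probe, at 0.367 with HSPA5 and at -0.424 with the bright HSP90B1 probe. These are descriptions over arrays that share heifers and 14-month RNA.

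**Figure D3:**
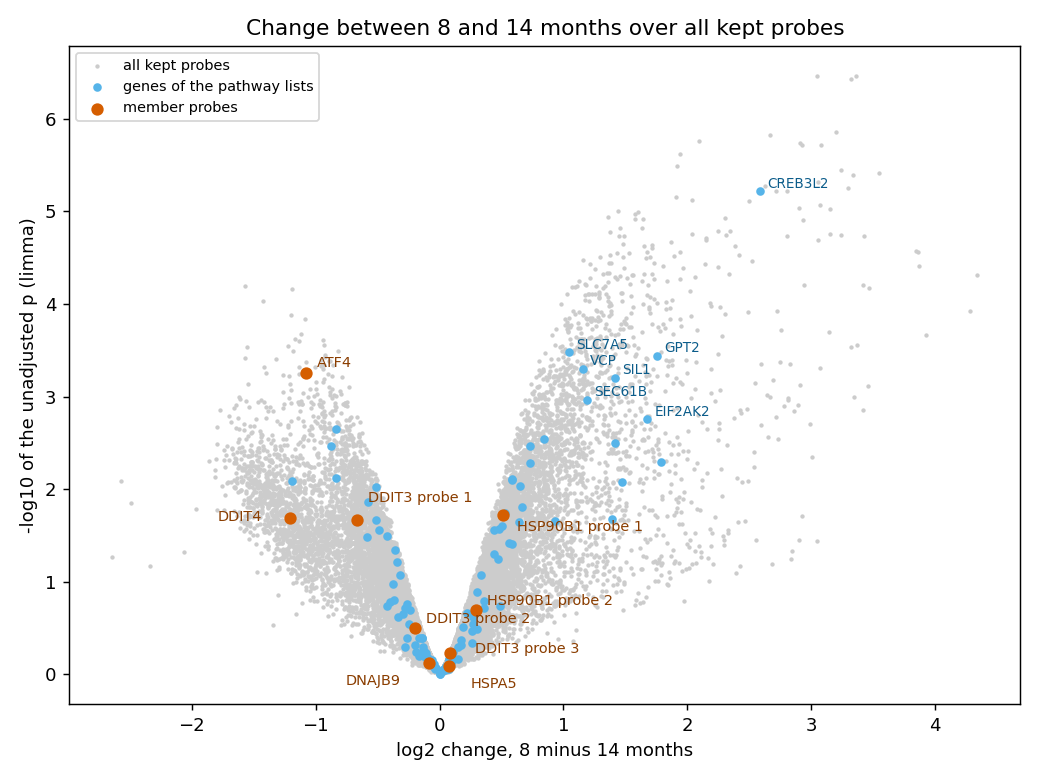
Log2 change between 8 and 14 months (horizontal axis) against -log10 of the unadjusted p from limma (vertical axis) for all 22692 kept probes in grey. The 9 member probes are in orange and the genes of the pathway lists in blue. ATF4 stands at -1.08 among the lower probes, and CREB3L2 at 2.59 is the highest labelled gene.

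Genes around these members were read from 6 lists, with the brightest kept probe standing for each gene. The lists were chosen with earlier results of these data known, so counts within them are descriptions. Of 109 measured genes 7 rose and 0 fell between 8 and 14 months, and their median change was 0.04. Over all 10206 genes 393 rose and 80 fell, with a median of 0.01. At 11 months limma called 0 of the 109 and 0 of all 10206 genes. An unadjusted p under 0.05 was found there for 11 of the 109 and 756 of the 10206. The 7 calls also changed with the heifers in the fit. Without heifer 3 none of the 109 genes passed, without heifer 4 only 2 did, and without heifer 2 the number was 10. Of all kept probes 0 passed without heifer 3 and 37 without heifer 4. With the cilia and squamous medians as covariates 0 of the 109 genes passed. Of 18 settings each, CREB3L2 lost its call in 2, SLC7A5 in 3, SIL1 and VCP in 4, GPT2 in 5 and SEC61B in 7. EIF2AK2 lost its call in 7 and turned its sign in 1 more.

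Among known targets and partners of ATF4, 2 of 28 measured genes rose and 0 fell, with a median of 0.09. 22 of the 28 estimates were above 0, against 5212 of all 10206 genes. SLC7A5, the transporter subunit LAT1 that imports large neutral amino acids, had ratios of 0.874, 1.42, 0.807 and 1.08 in heifers 1 to 4. It was higher at 8 months in every heifer and rose by 1.05 ± 0.27 (adjusted p = 0.0246, limma). GPT2, a mitochondrial alanine aminotransferase, had ratios of 2.48, 2.05, 0.786 and 1.7 and rose by 1.75 ± 0.72 (adjusted p = 0.0258). PSAT1, an enzyme of serine synthesis, stood at 1.79 ± 0.74 and did not pass (adjusted p = 0.0738). The 2 called targets and the factor itself thus had opposite signs at 8 months. With mean in place of median intensities GPT2 stood at 1.2 and did not pass (adjusted p = 0.0652). With the cilia and squamous covariates GPT2 stood at 0.43 and SLC7A5 at 1.36, and neither passed (adjusted p = 0.823 and 0.235).

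Among stress sensors and genes of eIF2 control, 1 of 15 rose and 0 fell, with a median of -0.11. EIF2AK2 (PKR), the kinase activated by double-stranded RNA and an interferon-induced gene, had ratios of 3.32, 0.927, 1.06 and 1.4. All 4 were above 0, heifer 1 by far the most, and the change was 1.68 ± 1.12 (adjusted p = 0.0485). It did not pass without heifer 1 (1.21, adjusted p = 0.0823), 3 (1.74, 0.24) or 4 (1.48, 0.225). Nor did it pass with no background correction, with mean intensities, with all probes or with no dye term (adjusted p = 0.0656, 0.0792, 0.055 and 0.0705). With the cilia and squamous medians as covariates the sign turned, to -0.05. EIF2B2, a subunit of the exchange factor that eIF2 phosphorylation blocks, stood at -0.84 ± 0.26 and did not pass (adjusted p = 0.0534), and its other probes lay between -0.42 and 0.40. PPP1R15B, which directs a phosphatase to eIF2, stood at -0.58 ± 0.19 (adjusted p = 0.112).

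Among ER chaperones and folding enzymes beyond the members, 1 of 25 rose and 0 fell, with a median of 0.10. SIL1, the nucleotide exchange factor of HSPA5, had ratios of 1.05, 1.43, 1.16 and 2.03. Every heifer was above 0, and SIL1 rose by 1.42 ± 0.44 (adjusted p = 0.0313). It did not pass with mean intensities (1.13, adjusted p = 0.0908), without heifer 3 (1.47, 0.221), without heifer 4 (1.11, 0.14) or with the marker covariates (1.86, 0.199). SERP1, which stabilises membrane proteins during translocation, stood at 0.73 ± 0.52 (adjusted p = 0.0626) with its other probe near 0, and CALR, a lectin chaperone, at 0.73 ± 0.22 (adjusted p = 0.0741).

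Among genes of ER-associated degradation and translocation, 2 of 24 rose and 0 fell, with a median of 0.09. VCP, the ATPase that extracts proteins from the ER for degradation, had ratios of 0.618, 0.888, 1.21 and 1.91 and rose by 1.16 ± 0.56 (adjusted p = 0.0292), while its other probe stood at 0.22. SEC61B, a subunit of the translocation channel, had ratios of 1.34, 2.09, 0.0152 and 1.31. It rose by 1.19 ± 0.86 (adjusted p = 0.0392), with heifer 3 near 0. Without heifer 1 SEC61B stood at 1.33 and without heifer 2 at 1.02, and it passed in neither case (adjusted p = 0.0695 and 0.0937). EDEM3, a mannosidase that marks misfolded glycoproteins, stood at -0.88 ± 0.27 and did not pass (adjusted p = 0.0628), and its other probes lay between -0.34 and 0.14.

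CREB3L2, a bZIP factor anchored in the ER membrane that promotes secretory pathway genes, had the smallest p of the 109 genes. Its ratios of 8 over 14 months were 2.67, 2.67, 1.96 and 3.03, and those of 11 over 14 months 1.9, 2.21, 0.219 and 0.78. It was higher than at 14 months on all 8 arrays. It rose by 2.59 ± 0.45 at 8 months (adjusted p = 0.00693), and at 11 months it stood at 1.28 ± 0.94 without passing. Over 18 settings its 8-month change lay between 2.18 and 3.27 (the latter in the fit without the 8-month arrays of heifers 1 and 2) with an adjusted p from 0.000881 to 0.141. With the cilia and squamous covariates it was 2.46, with an adjusted p of 0.135. It was the sole gene called of 7 ER-membrane factors and secretory regulators, whose median was -0.15. The next by p were KDELR2 at -0.49 ± 0.34 and KDELR3 at -0.15 ± 0.22 (adjusted p = 0.151 and 0.624), receptors that return chaperones to the ER.

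Of 10 regulators of mTORC1 around DDIT4, limma called 0 at 8 months. Their median was -0.15, and 4 had an unadjusted p under 0.05, against 2832 of all 10206 genes. TSC2, a subunit of the complex through which DDIT4 acts, stood at 0.84 ± 0.50 (adjusted p = 0.0594). TXNIP, a thioredoxin-binding protein, stood at 1.41 ± 1.16 (adjusted p = 0.0611) with other probes between 0.35 and 0.57, and the sestrin SESN1 at 0.58 ± 0.35 (adjusted p = 0.0889).

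**Figure D4:**
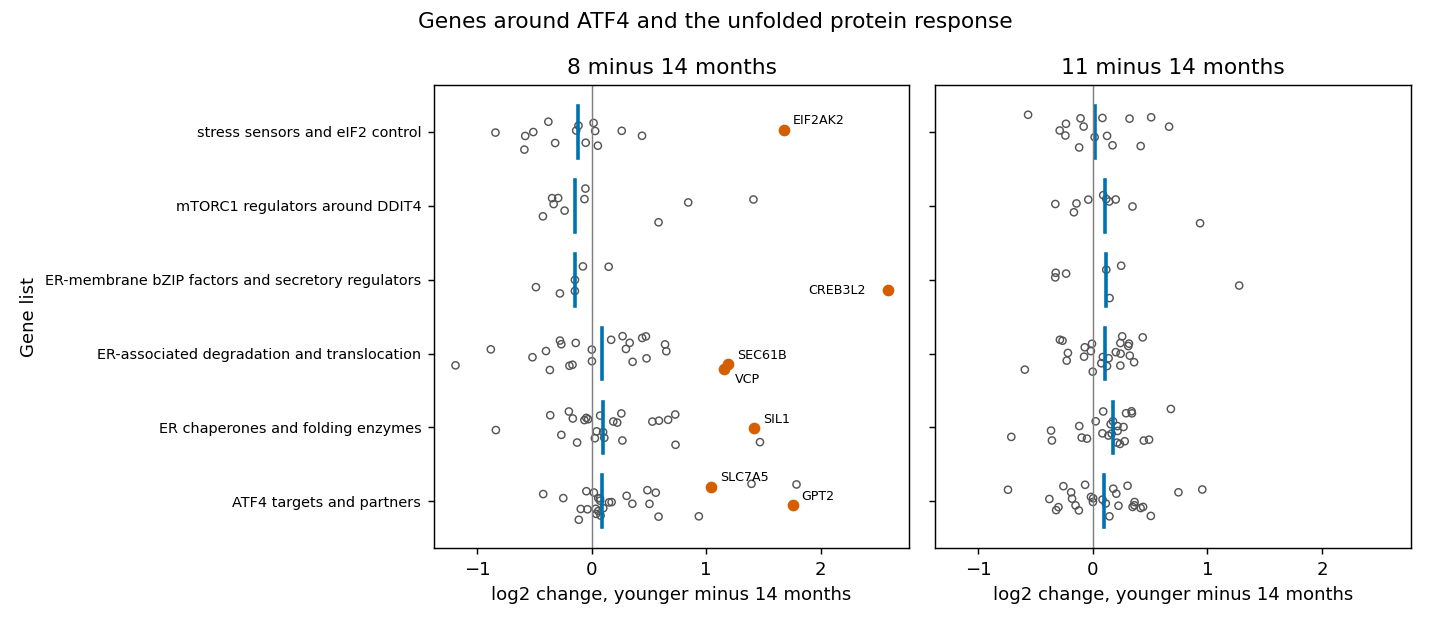
Log2 change of each measured gene in the 6 lists (rows), between 8 and 14 months on the left and between 11 and 14 months on the right. Each circle is a gene, orange points with names are the 7 genes that passed, and blue bars are list medians, which lie between -0.15 and 0.10 on the left.

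The genes whose log2 ratios over the 8 arrays were most like those of 3 members were taken from 10142 named genes by Pearson correlation. For ATF4 they were RAP1A at 0.967, AHSG at 0.916, CASP6 at 0.911, TMEM19 at 0.909 and ARL1 at 0.902. RAP1A stood at -0.66 between 8 and 14 months and at -0.10 between 11 and 14 months, and it did not pass at 8 months (adjusted p = 0.135, limma). AHSG stood at 0.14 and 0.92 in these comparisons, which shows that a high correlation here is a likeness of pattern and not of level.

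For HSPA5 the most alike were ALDH2 at 0.983, ANXA2 at 0.954, APOF at 0.945, AZGP1 at 0.941 and EGFLAM at 0.941. For DDIT4 they were CAV1 at 0.992, ARIH2 at 0.988, LELP1 at 0.984, PIPOX at 0.983 and SCAF1 at 0.983. CAV1, the main protein of caveolae, stood at -1.41 between 8 and 14 months and at -0.89 between 11 and 14 months, and it did not pass at 8 months (adjusted p = 0.102, limma). These coefficients are the highest of 10142 and are given as descriptions of 8 arrays that share heifers and 14-month RNA.

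**Figure D5:**
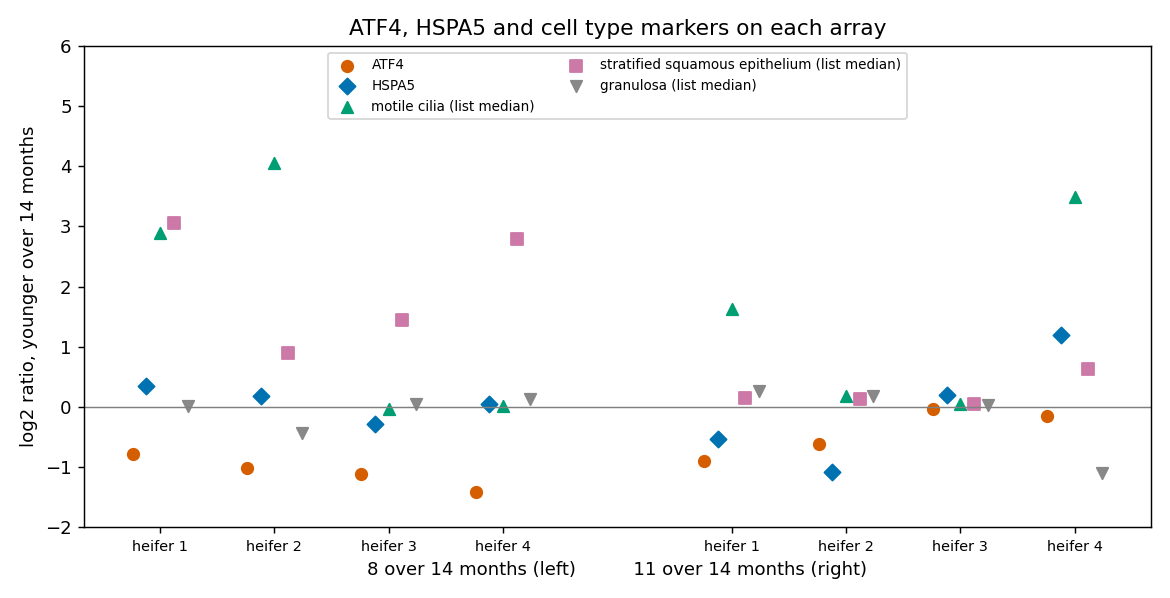
Log2 ratio of the younger age over 14 months (vertical axis) on each of the 8 arrays (horizontal axis, heifers 1 to 4 at 8 months on the left and at 11 months on the right). Orange circles are ATF4, blue diamonds HSPA5, and the other symbols the medians of the marker lists of motile cilia, squamous epithelium and granulosa. On the 8-month arrays of heifers 3 and 4 ATF4 is at -1.11 and -1.414, the cilia medians are -0.0239 and 0.0182, and the squamous medians are 1.44 and 2.8.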

How the data were processed

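The scanner tables that the authors deposited hold, per the file headers, the raw intensity (median and mean over pixels) of every spot and of its surround in both channels. Between 22 and 59 spots per array are marked there to be ignored and were left out. The image software and the authors' normalization are not given in the sources used. The log2 ratios in the authors' deposited table were compared with these intensities. They followed Cy5 over Cy3 of background-subtracted medians after loess, with correlations of 0.999 to 1, slopes of 1 to 1.01 and column medians from -0.021 to 0.00083. This table served as an alternative.

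Median intensities were corrected with normexp at an offset of 50 and normalized by loess within arrays in limma 3.58.1 (R 4.3.3, statmod 1.5.0). Control spots had no weight and were removed, and every ratio was turned to the younger age over 14 months. A probe was kept where it exceeded the mean of 153 negative control spots by 2 SD in 3 or 4 heifers at any age, which held for 22692 of 43794 probes and all 9 member probes. The model had terms for 8 and for 11 against 14 months and a dye term, with the heifer as a random block (correlation 0.159, residual degrees of freedom 5, prior degrees of freedom 3.71). The difference of 8 and 11 months is that of both terms. Intervals are 95% intervals from this fit. Channel levels came from scaling average brightness between arrays after loess. Precision is limited by the number of arrays. The labels do not say how the pools were made, and p-values measure the spread between these samples. Both comparisons share an estimate of that spread. Each p, standard error and interval thus also rests on the arrays of the other comparison, while the SD printed after ± does not.

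Arrays are paired by heifer, since the labels give the same animals for both sets. A heifer's deviations from the means of the sets correlated at 0.379, 0.277, 0.447 and -0.11 for heifers 1 to 4. Both ratios of a heifer are taken over its 14-month RNA, which by itself makes them deviate together. Gene symbols are those of the platform annotation. 21549 of 21790 probes with a symbol matched the bovine table of the ARS-UCD2.0 assembly. Its coordinates are not given, since the build behind the platform annotation is not named in the sources used here. Probes of a gene are numbered from the brightest. Members, pathway lists and marker lists were chosen with earlier results of these data known. Named are all member probes, every called gene and the 3 smallest p of each pathway list between 8 and 14 months, and the 5 genes most correlated with ATF4, HSPA5 and DDIT4, beside the markers CYP19A1, FSHR and KRT4.

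The fit was tested on simulated data for 8 against 14 months over 22692 probes. Of 100 probes changed by 1 log2 unit 42 were called, of 100 changed by 2 log2 units 95, and 11 unchanged probes were called. The noise was normal and independent between probes, with the variances and heifer correlation of this fit and no dye effect. These rates need not hold for the arrays, where cilia and squamous genes moved together. Alternatives changed the background correction, intensity column, normalization, source of the ratios, filter, dye term, block, array weights, samples in the fit and threshold, left out each heifer and the arrays with high cilia genes, and added marker medians as covariates.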

Additional observations from a re-analysis of the deposited data

Results flagged for a closer look

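Over the members and the named genes of the pathway lists, 54 groups of 4 heifers were examined, and in 4 of them a single heifer lay far from the others. Chance flags about 1 in 20 such groups. The bright HSP90B1 probe had a log2 ratio of 8 over 14 months of 0.702 in heifer 2, above the others, which lay close together. TXNIP had a ratio of 3.14 in heifer 2 at 8 over 14 months, far above the other 3. EDEM3 stood at -0.471 in heifer 3 at 8 over 14 months, less low than the others. PSAT1 had a ratio of 2.86 in heifer 4 at 11 over 14 months, on the array with a cilia median of 3.49 and a granulosa median of -1.09.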

How the results depend on the processing

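ATF4 stayed lower at 8 than at 14 months in all 18 settings and lost its call in 3: without heifer 3 or 4, and with the cilia and squamous medians as covariates. Without replicate block ATF4 stood at -1.08 (adjusted p = 0.0247) and 993 probes passed. With a fixed replicate block and no dye term it stood at -1.08 (adjusted p = 0.0469) and 918 passed. Neither changed another member's call. The probes called between 8 and 14 months, 871 as reported, were 5617 at an unadjusted p under 0.05, 1708 with median normalization, 2020 with a dye term per set of arrays, 3553 with array weights, 3236 in a fit of the arrays of the comparison alone and 0 with marker covariates. Leaving out a heifer gave 0 (without heifer 3) to 1705 (without heifer 2), with 37 without heifer 4. The share of rises was 84.4% as reported, 73.8% with median normalization, 60.4% with a dye term per set, 50.9% with array weights and 50.7% in the fit of the comparison's arrays. Member probes called, 1 as reported, were 4 at an unadjusted p under 0.05, 2 with mean intensities, array weights or the comparison's arrays alone, 0 with covariates, and 0 to 2 without a heifer. Pathway genes called, 7 as reported, were 37, 13 with median normalization, 12 with a dye term per set, 18 with array weights and 18 with the comparison's arrays, 4 when the 8-month arrays of heifers 1 and 2 were left out, 0 with covariates, and 0 to 10 without a heifer. At an unadjusted p under 0.05 stood 1702 probes between 11 and 14 months, and 1209 probes and 1 member probe between 8 and 11 months. A dye term per set gave 19 calls between 8 and 11 months and array weights gave 1. The causes were not tested.

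Some estimates turned their sign, and none of the turned values was called. EIF2AK2, which passed at 1.68, stood at -0.0482 with covariates between 8 and 14 months, and the dim HSP90B1 probe, at 0.30 as reported, at -0.662. In the fit without the 8-month arrays of heifers 1 and 2 the 8-month arrays left share a dye orientation, and its values can lie outside the ratios left. The fit with covariates cannot separate age from the squamous medians, and its values can lie outside the ratios too. HSPA5 between 8 and 14 months stood at -0.146 with mean intensities, -0.125 with array weights, -0.865 when the 8-month arrays of heifers 1 and 2 were left out (below both ratios left, -0.282 and 0.057), -1.06 with covariates, and -0.136 to 0.347 without a heifer. Between 11 and 14 months HSPA5 stood at 0.0036 with median normalization, 0.0925 with mean intensities and -0.429 to 0.23 without a heifer. Between 8 and 11 months it stood at -0.238, -0.0711 and -0.459 with mean intensities, array weights and covariates, and at -0.254 to 0.551 without a heifer. DNAJB9 at 8 months stood at 0.0547 with median normalization, -1.24 with covariates, -0.717 with those 8-month arrays left out and -0.223 to 0.195 without a heifer, and at -0.0547 with covariates and -0.000428 to 0.537 without a heifer at 11 months. The DDIT3 probes at 8 months turned for the third, at -0.0241 with mean intensities and -0.24 with covariates. At 11 months the first stood at 0.0158 with median normalization and -0.285 to 0.0802 without a heifer. The second stood at 0.0052 with mean intensities and 0.179 when the 11-month arrays of heifers 1 and 4 were left out, and the third at -0.0743 to 0.0147 without a heifer. Between 8 and 11 months the second stood at -0.225 to 0.0875 without a heifer and the third at -0.195 with covariates. The bright HSP90B1 probe at 11 months stood at -0.0644 with array weights and -0.0392 to 0.254 without a heifer. The dim probe stood there at -0.203 when the 11-month arrays of heifers 1 and 4 were left out, -0.0455 with covariates and -0.0588 to 0.287 without a heifer. With covariates it stood at -0.617 between 8 and 11 months. Dim probes are limited by signal over background.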
